A study of Drosophila melanogaster with 11 samples.

Results

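The regions described here are 343 hMeRIP peaks on the assembled chromosome arms of the Drosophila genome that were called in both of the CRISPR-edited S2 lines with a deposited peak list. In hMeRIP-seq an antibody against 5-hydroxymethylcytosine (here a rat monoclonal) is used to enrich RNA fragments, and a peak is a stretch of genome where reads of the enriched RNA pile up. The members were chosen by the measured positions of the peaks: they are those of the yellow CRISPR list that lie outside unplaced and heterochromatic scaffold sequence and overlap a peak of the dTet CRISPR list by 1 bp or more. They are 343 of 479 yellow-list arm peaks (71.6%, 95% Wilson interval 67.4 to 75.5) and of 1018 yellow-list peaks in all. Seen from the other line, 332 of 591 dTet-list arm peaks (56.2%, 52.1 to 60.1) and of 964 dTet-list peaks in all met a yellow-list peak. These counts follow from the rule and carry no test. Each line has 1 hMeRIP sample, and the intervals cover counting error only.

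All cells are S2, a Drosophila line of embryonic origin with hemocyte-like features, grown in serum-free medium. The hMeRIP samples are total RNA of cells edited by CRISPR at dTet and, as the control, total RNA of cells edited at yellow, a pigmentation gene. The labels do not say whether either line is 1 clone. Transcript levels come from polyA RNA of 2 libraries of dTet knockdown cells and 2 control libraries, whose labels name no knockdown reagent. They also leave unsaid whether replicates came from separate cultures, and p-values then measure only the spread between these libraries, which may be technical. The other 5 of the 11 samples were not analysed here. Signal here is the read coverage per 40-bp bin of exon, scaled by the authors with 1 factor per library, and a gene is called detected where the controls averaged at least 1. The cells were checked against marker genes. Of 10 hemocyte markers 9 were detected in the controls, among them Hml at 15.4 and crq at 22.6. Markers of other tissues were mostly near 0. Of 6 neuron and glia markers 1 was detected (elav, 1.87), of 6 muscle markers 0, and of 6 germline markers 1 (aub, 2.13), with nSyb, Syt1, Mhc, up, nos and bam at 0 in all 4 libraries. A shared peak touched exons of 3 of the 9 detected hemocyte markers (Cg25C, vkg and srp) and of 0 of the neuron, glia, muscle and germline markers. Of the latter only elav and aub were detected. Among all detected genes 4.57% had a shared exonic peak, so the 0 says little about cell type. The muscle gene sls had a shared peak in an intron. In these bulk samples fewer cells of a kind and less RNA per cell cannot be told apart.

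Tet proteins are dioxygenases that oxidise 5-methylcytosine, in DNA of many animals and also in RNA. The fly has a single Tet gene, called dTet in the labels, and very little cytosine methylation in its DNA. Methylcytosine in RNA is written by methyltransferases of the Nsun and Dnmt2 families. An antibody peak reports where RNA was enriched. It gives no single modified base, and its strand is not in the files.

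The matched peaks were wider in the dTet list, and so were the peaks outside the members. Peaks of the dTet list only had a median width of 900 bp (n = 259), and yellow-only peaks 410.5 bp (n = 136). Greater width was thus not particular to the members. In the matched widths that follow, 11 dTet peaks that met more than 1 yellow peak count once for each. The median width was 1082 bp in the dTet list (25% to 75% range 882 to 1346), against 616 bp in the yellow list (470.5 to 818.5). The dTet peak was the wider one in 329 of 343 pairs (95.9%, 93.3 to 97.6) and at least 1.5 times as wide in 204. It contained the yellow peak whole in 283 pairs (82.5%, 78.1 to 86.2). Peak centres lay close together, with a median distance of 83.5 bp, and 205 pairs (59.8%) had centres within 100 bp of each other. Another 21 pairs (6.12%) had centres more than 500 bp apart. Because a wide peak is more likely to meet another, and width was part of what the rule used, these widths describe the members and were not tested. The lists hold no height or score.

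**Figure D1:**
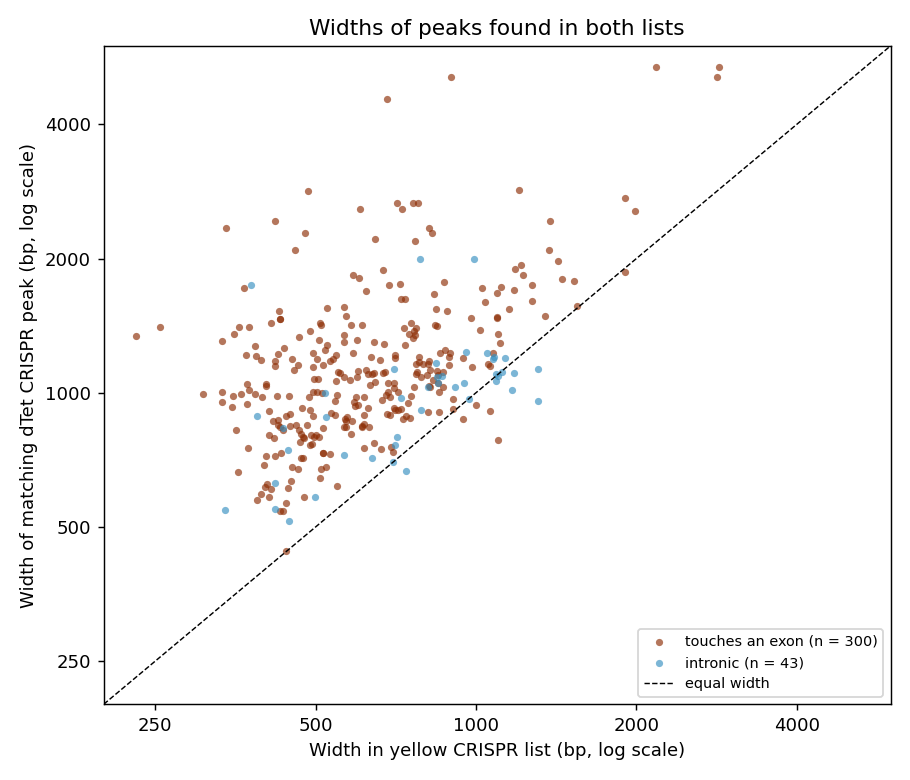
Width of each of the 343 peaks in the yellow CRISPR list (horizontal axis, bp, log scale) against the width of the dTet CRISPR peak it meets (vertical axis, bp, log scale). Points above the dashed line are wider in the dTet list, as 329 are, and the intronic peaks (n = 43, blue) lie nearer to the line than the exonic ones (n = 300, brown).

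In 11 places a single dTet-list peak met a pair of yellow-list peaks, which makes 22 of the members neighbours under a common dTet peak. The widest case lies in Cg25C (now Col4a1), which encodes a chain of collagen IV, the network-forming collagen of basement membranes. There the dTet peak ran from 5030770 to 5036157 on 2L (5388 bp; all positions are dm3), over yellow peaks of 2854 and 2180 bp. Its neighbour vkg, which encodes the other collagen IV chain, had a dTet peak of 5111 bp over yellow peaks of 896 and 2835 bp. The same arrangement was found in sty, Caf1-180, CG6686, Glt, woc, Hrb98DE, CG4038, ct and tou. No member met more than 1 dTet peak (0 of 343). Further wide members outside the collagen genes lay in rgn, CG13185 and eIF5B, a translation initiation factor gene. They were 2562, 1863 and 2729 bp wide in the dTet list, against 1991, 1905 and 1902 bp in the yellow list. Those in nocte, rudhira and Pep spanned 1565 to 1977 bp in the dTet list, against 1426 to 1547 bp in the yellow list. Of these 6 peaks 1, in CG13185, was narrower in the dTet list.

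The dTet gene itself (CG43444, now Tet) holds 3 members, and there the order of widths was the reverse or nearly even. Its exonic member on 3L was 783 bp in the dTet list (2788510 to 2789292), against 1099 bp in the yellow list (2788425 to 2789523), the lowest width ratio of all 343 pairs at 0.71. The intronic members were 1061 bp in the dTet list against 1092 bp in the yellow list, and 1050 bp in the dTet list against 950 bp in the yellow list. What the CRISPR edit did to the gene is not in the data used here.

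At the edge of the rule the weakest overlap was 126 bp, in an intron of ct, where 33.3% of the yellow peak was covered. The next lowest were 230 bp in RpL5, a yellow peak covered whole, and 247 bp in CG42346, covered to 49.7%. Just outside the rule lay yellow peaks in sgg, ctp and dTet, with gaps of 204, 283 and 468 bp to the nearest dTet-list peak.

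Most members lie in exons. Of the 343, 300 (87.5%, 83.5 to 90.6) touched an annotated exon, 43 (12.5%, 9.44 to 16.5) lay within a gene without touching one, and 0 lay outside annotated genes. Intronic peaks made up 10 of 259 dTet-only arm peaks (3.86%, 2.11 to 6.96) and 52 of 136 yellow-only arm peaks (38.2%, 30.5 to 46.6), so the members stood between both one-line classes. Neither one-line class had a peak outside annotated genes (0 of 259 and 0 of 136), and whether the lists were restricted to genes before deposit is not given in the sources used here. Among exonic members 161 of 300 lay wholly within exons. The median length of the exon with most of the peak was 1353 bp (n = 299, where the longest exon of an overlapping group stood for it). In genes of 3 or more exons that exon was the longest of its gene for 134 of 267 members (50.2%, 44.2 to 56.1), and the longest exon held on average 46.5% of the exonic length of those genes. It was the first or last in genome order for 94 of 267 (35.2%, 29.7 to 41.1), where those exons held 44.5% of the length. The corresponding share was 80 of 213 (37.6%, 31.3 to 44.2) for dTet-only peaks, where those exons held 47.2% of the length. For yellow-only peaks it was 42 of 75 (56.0%, 44.7 to 66.7), where they held 51.1%.

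The X carried 92 members (26.8%, 22.4 to 31.7), against 19.8% of the exonic length of genes detected in the controls. By arm the others were 72 on 3R, 71 on 2L, 66 on 3L and 42 on 2R, with 0 on chromosome 4. The 2R share of 12.2% stood beside 19.0% of the exonic length. Peaks of the dTet list only had 67 of 259 on the X (25.9%, 20.9 to 31.5) and yellow-only peaks 61 of 136 (44.9%, 36.8 to 53.2). With 1 sample per line, these shares describe the lists and no test of the line was possible.

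**Figure D2:**
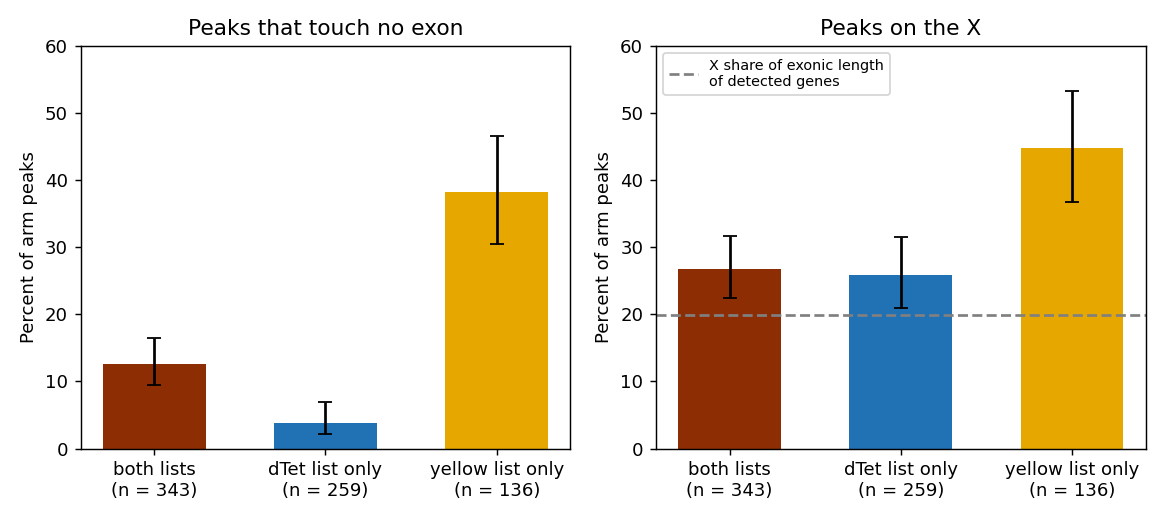
Percent of arm peaks that touch no exon (left) and that lie on the X (right), for peaks in both lists, the dTet list only and the yellow list only; bars start at 0 and error bars are 95% Wilson intervals of counting error. Peaks in both lists stand at 12.5% intronic and 26.8% on the X, and yellow-only peaks are highest on both measures.

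The 300 exonic members touched exons of 290 genes, 272 of them protein-coding by a current name table. A single member fell on 261 genes, 28 had 2 and 1 gene, mask, had 3. Since some peaks share a gene, they are not independent. Exons of more than 1 gene were touched by 16 members (12 touched 2 genes and 4 touched 3), and without strand these cannot be assigned. In the RNA-seq libraries 278 of the 290 were detected in the controls, which is 4.57% of the 6086 detected genes. That percentage is the level over detected genes of all lengths and signals, and it is itself set by the choice of members. Among detected genes with 3402 bp of exon or more the share was 11.8%. It was 23.4% where these also had a control signal of 5.07 or more. The gene groups that follow are chosen lists and not full classes, so members of like function can lie outside their group. In these groups median exonic length ran from 877 bp (ribosomal protein genes) to 6603 bp (chromatin regulators). Their shares were not compared with those of genes of like length and signal, so enrichment of a group was not tested.

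The collagen IV genes had the highest mean control signals of the members. Collagen and basement membrane genes had 4 of 13 detected genes among the members (30.8%): Cg25C, vkg, Tig (an integrin ligand) and Ppn (papilin). The member Glt, described below, also encodes a basement membrane protein but is not on this list. Cg25C had a signal of 67.6 and 75.7 in the knockdown libraries and 78.1 and 77.1 in the controls, the highest control mean of the members. For vkg it was 56.2 and 58.8 in the knockdown libraries and 71.0 and 65.3 in the controls. Both knockdown libraries lay below both controls for each collagen chain, as they did for 17.4% of all tested genes. Neither difference passed the test (log2 change -0.12 with SE 0.16 for Cg25C and -0.24 with SE 0.16 for vkg; limma, adjusted p = 0.9995 for both). Of the 13 tested genes of this group 10 had a negative log2 change, with a median of -0.17 over the 13, and 0 passed. Among its members Tig had a log2 change of -0.17 and Ppn of -0.33. Single libraries moved 3 of these values. Cg25C was at -0.03 without knockdown 1 and -0.20 without knockdown 2. Tig was at -0.34 without control 1 and -0.0035 without control 2, and Ppn at -0.10 without control 1 and -0.56 without control 2.

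Chaperone genes had 6 of 17 detected genes among the members (35.3%). They were Hsp83 (the fly Hsp90), Hsc70-3 and Gp93 of the endoplasmic reticulum, the small heat shock gene Hsp27, the DnaJ-type co-chaperone gene Droj2 and Hsp60 of mitochondria. Hsc70-3 was even across libraries, at 38.6 and 38.3 in the knockdown libraries and 39.6 and 39.0 in the controls. Hsp83 stood at 53.0 and 25.8 in the knockdown libraries and 63.4 and 28.3 in the controls. Hsp27 stood at 22.0 and 10.8 in the knockdown libraries and 33.6 and 8.57 in the controls. For both of these heat-inducible genes the library numbered 1 was higher than its partner in each group, by more than the groups differed. A further member (3R, 7781265 to 7781864) fell in exons shared by Hsp70Aa and Hsp70Ab, near-identical copies with signals of 0.0124 and 0 in the knockdown libraries and 0.0425 and 0 in the controls. Reads of such copies cannot be told apart here, so the gene under that peak, picked after its values were seen, is uncertain.

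Of 44 detected genes on the list of chromatin regulators and coactivators 9 were members (20.5%). These were fs(1)h (the fly BET bromodomain gene), nej (CBP acetyltransferase), the remodeller genes kis, Mi-2, brm, dom and XNP, the Mediator subunit gene kto and ear. The signals of fs(1)h were 13.6 and 14.6 in the knockdown libraries and 13.1 and 15.0 in the controls. The groups overlapped. It had 2 members on the X, of which one was 1524 bp wide in the dTet list against 884 bp in the yellow list (7935215 to 7936098), and the other 1674 bp in the dTet list against 1093 bp in the yellow list (7945590 to 7946682). The gene nej also had 2, and stood at 5.42 and 4.38 in the knockdown libraries and 6.30 and 4.60 in the controls. Of 40 detected genes on the transcription factor list 7 were members (17.5%). They were dm (Myc), crol, the hemocyte GATA factor gene srp, E2f, the ecdysone-induced genes Eip75B and br, and jim. The gene srp stood at 11.1 and 11.7 in the knockdown libraries and 12.5 and 11.2 in the controls, with overlapping groups. Of the chromatin members 3 had a positive and 6 a negative log2 change, of the transcription factor members 5 and 2, and 0 of either group passed the test.

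RNA-binding regulators had 10 of 41 detected genes among the members (24.4%). They include 4 hnRNP genes, Hrb87F, Hrb27C, sqd and Hrb98DE, beside Imp, the DEAD-box helicase gene bel, the translational repressor gene pum, shep, spen and mask. The ankyrin-repeat and KH-domain gene mask, with 3 members on 3R, had signals of 7.40 and 7.34 in the knockdown libraries and 7.32 and 7.38 in the controls. Hrb27C stood at 27.3 and 27.8 in the knockdown libraries and 26.6 and 27.2 in the controls. Hrb87F was higher and more spread, at 31.0 and 40.5 in the knockdown libraries and 27.7 and 34.8 in the controls. The helicase gene Rm62 had 2 members, with 34.0 and 37.1 in the knockdown libraries and 23.5 and 31.9 in the controls. Both its knockdown libraries lay above both controls, as for 13.2% of all tested genes. Its log2 change of 0.36 (SE 0.19) did not pass (limma, adjusted p = 0.9995). It was 0.15 without control 1 and 0.58 without control 2.

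Genes of RNA modification had 3 of 14 detected genes among the members (21.4%): dTet, CG8545 and Nop60B, the pseudouridine synthase of the H/ACA snoRNPs. CG4038 (now Gar1), which encodes another core protein of the same particles, had 2 members under a common dTet peak and a signal of 53.7 and 66.6 in the knockdown libraries and 53.4 and 59.0 in the controls. dTet stood at 4.88 and 6.60 in the knockdown libraries and 6.93 and 8.01 in the controls. Both its knockdown libraries lay below both controls, as for 17.4% of all tested genes. The log2 change was -0.34 (SE 0.21; limma, adjusted p = 0.9995), so the lower dTet signal in the libraries labelled as its knockdown did not pass the test. Without knockdown 1 the value was -0.15, and without knockdown 2 it was -0.52.

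Signalling and growth genes had 6 of 62 detected genes among the members (9.68%). They were sty (sprouty, an antagonist of receptor tyrosine kinase signalling), the ETS factor gene pnt, the phosphatase gene csw, the Fos gene kay, S6k and the Notch coactivator gene mam. The gene sty had the third highest control signal of the members, at 68.5 and 63.8 in the knockdown libraries and 73.2 and 61.9 in the controls, and its members lay under a common dTet peak of 2584 bp on 3L. Cytoskeleton and adhesion genes had 6 of 41 (14.6%), namely Moe, Rac2, zip (myosin II heavy chain), kst, rudhira and Patronin. Of these 6, 5 had a positive log2 change and the median was 0.25, against 33 of 41 tested genes and a median of 0.10 for the whole list, and 0 of the 41 passed (limma). Moe stood at 23.0 and 28.3 in the knockdown libraries and 26.2 and 24.1 in the controls. Translation factors had 4 of 26 (15.4%), which were eIF5B, eIF-2beta, NAT1 and eIF-2alpha, and ubiquitin and turnover genes 3 of 22 (13.6%), which were Usp7, CG8184 (now HUWE1) and puf. The group of hemocyte and scavenger receptor genes had 1 of 15 (6.67%), which was srp, the GATA factor gene already counted above and not a receptor gene.

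Cytoplasmic ribosomal protein genes had 1 of 85 detected genes among the members (1.18%). That gene was RpL5, whose 230-bp peak on 2L also lies over snoRNA:Psi28S-2996. The detected ribosomal protein genes had a median control signal of 62.0, against 5.90 for the 278 detected members, and a median exonic length of 877 bp, against 4415 bp for the members.

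**Figure D3:**
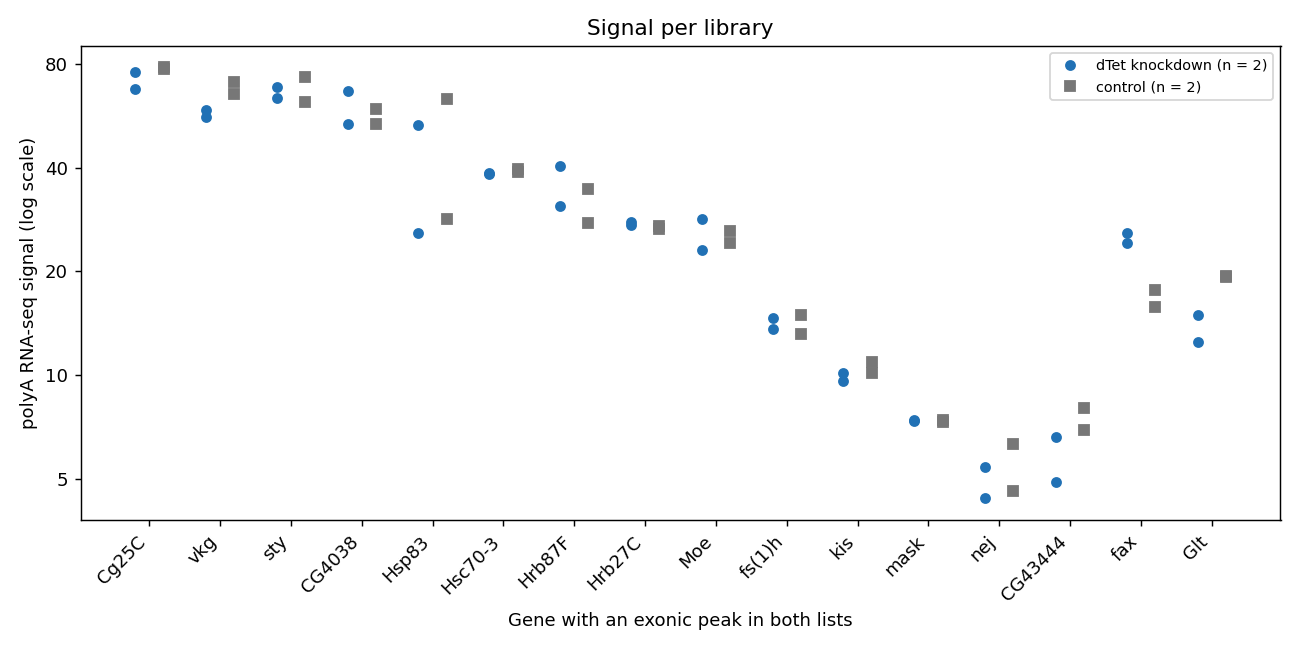
polyA RNA-seq signal (log scale) of 16 genes with an exonic peak in both lists, with each point a library: dTet knockdown (blue circles, n = 2) left of control (grey squares, n = 2). By mean control signal the collagen genes Cg25C and vkg are highest, while sty lies above vkg in both knockdown libraries. Hsp83 shows a wide spread within both groups, and both knockdown libraries lie above the controls for fax and below them for Glt.

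Length and level went together with membership. Among the longest 25% of detected genes (3402 bp of exon or more) 179 of 1522 were members (11.8%), against 14 of 1522 (0.920%) among the shortest 25%. By control signal the shares were 146 of 1522 (9.59%) in the highest 25% and 21 of 1522 (1.38%) in the lowest 25%. Within the longest genes the share was 23.4% (89 of 381) at the highest signals and 4.20% (16 of 381) at the lowest. These are descriptions across genes with no test.

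The members' median level was similar in the 4 libraries. The median signal of the 278 detected members was 5.79 and 5.95 in the knockdown libraries and 5.70 and 5.86 in the controls. Genes with a dTet-only exonic peak and no shared one (185 detected) had 6.30 and 6.13 in the knockdown libraries and 6.15 and 5.87 in the controls. Genes with a yellow-only exonic peak and no shared one (62 detected) had 4.49 and 4.23 in the knockdown libraries and 4.66 and 4.82 in the controls. A gene with both kinds of peak would enter both sets. Members thus stood above yellow-only genes in 4 of 4 libraries and below dTet-only genes in 4 of 4. These are differences between sets of genes within a library and were not tested. The 5535 detected genes with no exonic arm peak lay lower, at 2.72 and 2.74 in the knockdown libraries and 2.91 and 2.78 in the controls, and were shorter, with a median of 1879 bp of exon. At the low end of the detected members were CG10631, S6kII and Upf3, and 12 of the 290 genes had a control signal below 1.

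**Figure D4:**
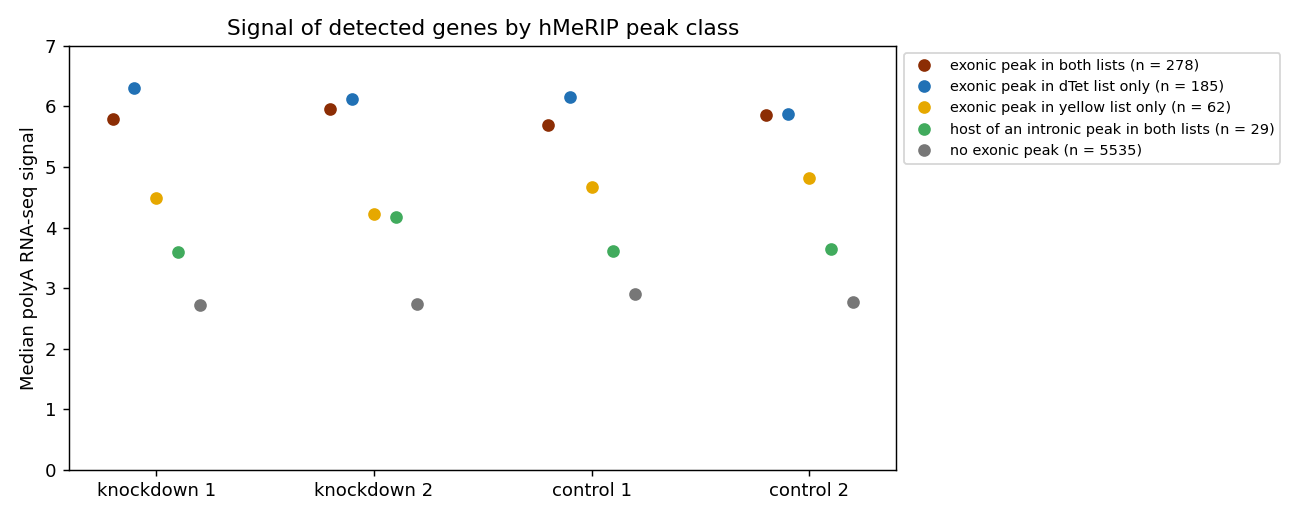
Median polyA RNA-seq signal of detected genes (vertical axis) in each library (horizontal axis, knockdown left of control), by hMeRIP peak class. Genes with an exonic peak in both lists (brown, 5.70 to 5.95) lie beside dTet-only genes and above yellow-only genes, hosts of intronic peaks and genes without an exonic peak in each library.

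The intronic members differed from the exonic ones in width and in their genes. Their median width was 1028 bp in the dTet list and 811 bp in the yellow list, and the median width ratio was 1.17, against 1.70 for exonic members. The dTet peak was not the wider one in 9 of 43 intronic pairs (20.9%, 11.4 to 35.2), against 5 of 300 exonic pairs (1.67%, 0.714 to 3.84). They lay in 42 genes, of which 11 also had an exonic member. In 11 of the 43 every host gene had a control signal below 1. Examples, picked after their values were seen, are CadN2, which encodes an N-cadherin and was listed at 0 in all 4 libraries, the synaptic gene Snap25, at 0 and 0.136 in the knockdown libraries and 0.0755 and 0 in the controls, and beat-Vb, at 0 and 0 in the knockdown libraries and 0.0408 and 0.102 in the controls. Their peaks were 1111, 1090 and 1016 bp wide in the dTet list, against 1118, 1099 and 1169 bp in the yellow list. The gene tou on 2R, which encodes a chromatin protein, had 3 intronic members and was expressed, at 3.03 and 2.86 in the knockdown libraries and 3.44 and 2.97 in the controls. Of the 42 hosts 29 were detected, with median signals of 3.60 and 4.18 in the knockdown libraries and 3.61 and 3.65 in the controls. RNA of introns is not measured by the exon files.

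RNA-seq values did not enter the rule, so the knockdown comparison could be tested on the members. The members were nonetheless chosen with earlier results of these data known. Of the 290 genes 278 passed the filter of a mean signal of 1 or more. None passed at an adjusted p of 0.05 (0 of 278; limma over all 6050 tested genes, of which 0% passed), with a smallest adjusted p of 0.667. At an unadjusted p under 0.05 there were 6 members (2.16%), against 4.05% of all tested genes. The median log2 change of the members was 0.02 (25% to 75% range -0.09 to 0.14), with 146 higher and 132 lower, and that of all tested genes was -0.03, with 2738 higher and 3312 lower. Both knockdown libraries lay above both controls for 64 members (23.0%), against 13.2% of all tested genes, and below both for 38 (13.7%), against 17.4%. Members had higher signals and longer exons than other genes, and the part of this in those shares was not tested.

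The members with the smallest unadjusted p in each direction are given as values, in order of p. On the higher side the smallest p was that of snoRNA:Psi28S-3405d, which lies on 3R under a peak that also touches exons of Hrb98DE. This snoRNA entry had 3.35 and 4.17 in the knockdown libraries and 1.19 and 1.17 in the controls (limma, log2 change 1.12, SE 0.22, adjusted p = 0.667). Its control values lay near the level of 1 used to call a gene detected. The gene fax (failed axon connections) followed, with 24.2 and 25.9 in the knockdown libraries and 17.7 and 15.8 in the controls, a log2 change of 0.56 (SE 0.17). CG10555 (0.48), Top3alpha (0.41), which encodes a topoisomerase, and sle (0.67) completed the higher side. For sle 1 control library decided the value, at 5.96 and 6.83 in the knockdown libraries and 2.25 and 5.67 in the controls: without control 1 its log2 change was 0.15, and without control 2 it was 1.18. That of CG10555 was 0.26 without control 1 and 0.71 without control 2.

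On the lower side snmRNA:184, an entry of 1 bin inside dom, stood at 2.98 and 4.76 in the knockdown libraries and 8.50 and 11.7 in the controls (log2 change -1.20, SE 0.25; limma, adjusted p = 0.708). The neighbouring snoRNA:Me28S-G2596 under the same peak had -0.81. Neither can be told from reads of dom, whose exons overlap them. Glt, which encodes the basement membrane protein glutactin, had 12.5 and 14.9 in the knockdown libraries and 19.4 and 19.2 in the controls (-0.47, SE 0.18; limma, adjusted p = 0.9995). One of its peaks also lies over CG9287. CG15745 (-0.44) and CR44049 (-0.38) shared exons with other genes. Without control 1 CG15745 was at -0.23, and without control 2 CG15745 was at -0.66 and snoRNA:Me28S-G2596 at -0.44. None of these members passed the test.

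**Figure D5:**
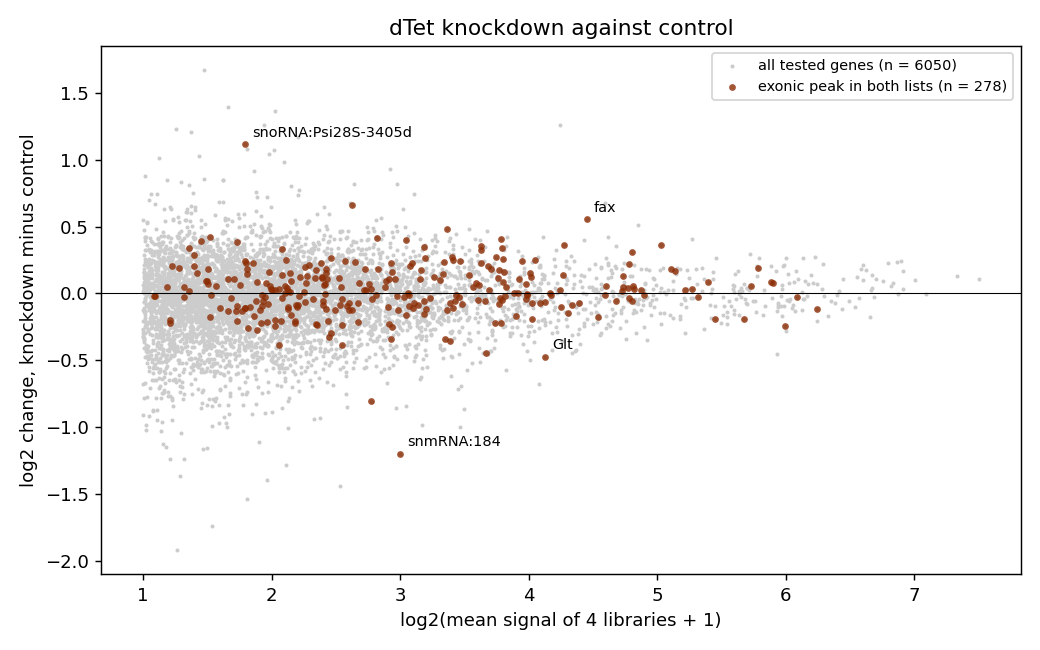
Log2 change between dTet knockdown and control libraries (vertical axis, knockdown minus control) against the log2 of the mean signal + 1 (horizontal axis) for all 6050 tested genes (grey) and the 278 tested genes with an exonic peak in both lists (brown). The members centre on 0.02, none passes the test, and the labelled genes are among its extremes.

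The exons that lie under the members were tested one by one as well. Of 390 such exons (each the longest of an overlapping group) 375 were tested among 23023, and 0 passed at an adjusted p of 0.05 (limma, smallest adjusted p = 0.9988), as did 0% of all tested exons. At an unadjusted p under 0.05 there were 10 (2.67%), against 3.96% of all. Their median log2 change was 0.05, with 221 higher and 154 lower, and that of all tested exons was 0.02. Apart from the snoRNA and snmRNA entries above, the smallest unadjusted p-values were those of short exons in Top1, which encodes a topoisomerase, cora, a gene of septate junctions, and puf, which encodes a deubiquitinase. They were picked after their values were seen. The Top1 exon of 4 bins stood at 2.98 and 3.10 in the knockdown libraries and was listed at 0 in both controls, while the whole gene stood at 4.31 and 4.19 in the knockdown libraries and 3.94 and 3.75 in the controls. The cora exon of 5 bins had 13.3 and 11.5 in the knockdown libraries and 5.71 and 5.78 in the controls (log2 change 0.99, SE 0.31; limma, adjusted p = 0.9988). The puf exon of 5 bins had 4.32 and 6.67 in the knockdown libraries and 0 and 2.65 in the controls. In these 3 exons the groups did not overlap, which follows largely from picking them by p and adds nothing to the test.

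Within a gene, polyA coverage was higher in the exons under the members than in the rest. In 258 detected genes that had both kinds of exon, the median log2 ratio of signal + 1 was 0.66 and 0.61 in the knockdown libraries and 0.69 and 0.69 in the controls. It was above 0 in 200 and 213 of the genes in the knockdown libraries and in 188 and 205 in the controls. The same ratio was 0.66 and 0.67 in the knockdown libraries and 0.60 and 0.58 in the controls for exons under dTet-only peaks (195 genes), and 0.64 and 0.75 in the knockdown libraries and 0.77 and 0.74 in the controls for yellow-only peaks (74 genes). All of the 3 peak classes thus had a positive median in each library. For the members, with exons of 10 or more bins it was 0.45 and 0.44 in the knockdown libraries and 0.48 and 0.37 in the controls.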

How the data were processed

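Per the submitters' processing notes, reads were aligned with BWA to dm3 and hMeRIP peaks were called with MACS 1.4. The peak threshold, the use of input, the annotation and the read counter are not given in the sources used here. The deposited peak lists hold positions only, with no height, score or p-value. The deposited RNA-seq files give a signal for each of 78680 exons: the values are the mean reads per 40-bp bin times 1 factor per library, which held for 100% of the exons checked within 0.05 read. The value of 1 read per bin was 0.372 and 0.476 in the knockdown libraries, against 0.340 and 0.390 in the controls. Taken as a measure of relative depth, these values make knockdown 2 the shallowest library and control 1 the deepest. Absolute depth is unknown. Overlapping exons of a gene were represented by the longest, giving 68582, and a gene's signal is their mean weighted by bins. The test was limma 3.58.1 (R 4.3.3; trend, two-sided), knockdown minus control, on log2(signal + 1) of features with a mean signal of 1 or more, with Benjamini-Hochberg adjustment over all of them. Log2 changes on this scale understate those of low signals. A peak named a gene if it touched an exon by 1 bp. Alternatives covered the overlap, peak width, merging, exon share, pseudocount, filter, trend, centring, replicate block and each library. Named genes are the dTet gene, those of the 10 widest peaks, with most peaks, with the highest and lowest signals, with the smallest p in each direction, up to 5 of each gene list, and the peaks at the edge of the rule; further list members are only listed. Members, lists and rules were chosen with earlier results of these data known. Genomic sequence was not used here. Current gene names come from RefSeq's table for assembly Release 6, matched for 283 of the 290 genes.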

Additional observations from a re-analysis of the deposited data

How the results depend on the processing

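The count of shared peaks kept within 1.5 times its value under every overlap rule tried, from 236 to 343, with 332 when counted in the dTet list, an alternative chosen after seeing the data. Asking for 50% of both peaks lowered the share of yellow-list arm peaks to 49.3% and the exonic share to 83.5%. Keeping only peaks of 500 bp or more gave 84.0% shared. The median log2 change of the members was 0.057 with libraries centred on their median and lay between 0.01 and 0.03 with 1 library left out; 0 members and 0 exons under members passed in any fit tried. Over all genes 3 passed without knockdown 1 and 0 without any other library, and none of the 3 is a member. The median signal with all 290 genes in place of the detected ones was 5.55 and 5.40 in the knockdown libraries and 5.50 and 5.64 in the controls. The exon ratio was 0.82 and 0.77 in the knockdown libraries and 0.91 and 0.77 in the controls at a pseudocount of 0.1, and 0.45 and 0.44 in the knockdown libraries and 0.48 and 0.37 in the controls with exons of 10 or more bins. The 16 genes with a printed log2 change kept its sign in 96 of 96 values. These came from the 6 alternatives that can move an estimate, with Tig nearest to 0 at -0.0035 without control 2. Where both knockdown libraries lie on one side of both controls, leaving out 1 library cannot turn the sign. Most of these genes were also picked by small p in a direction, so the count says little. Deviations of same-numbered libraries correlated at 0.01 across 6050 genes, so no pairing by replicate number was seen over the genes as a whole. A pairing limited to some genes was not tested, and Hsp83 and Hsp27 were higher in the library numbered 1 of each group. With the replicate block 0 genes passed. In this balanced design the block cannot move a log2 change, so the median is 0.02 by construction. The cause of these shifts was not tested.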
